A study of Mus musculus with 6 samples.

Results

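Voltage-gated calcium and sodium channel genes were compared between Lgi1 knock-out and wild-type neural precursor-like cells. The genes were chosen by their symbols, as every gene of the array annotation named as a Cacna1, Cacna2d, Cacnb or Cacng subunit or as an Scn pore (a) or beta (b) subunit, and 35 of the 19938 genes measured met this rule. They comprised 10 calcium channel pore genes, 4 α2δ genes, 3 β genes, 7 γ genes, 8 sodium channel pore genes and 3 sodium channel β genes. The knock-out cells carried a homozygous deletion of Lgi1, and the wild-type cells carried intact Lgi1. Both were immortalized lines derived from embryo brain of the C57BL/6J strain at day 13.5, kept in RPMI with fetal bovine serum. Lgi1 encodes a secreted neuronal protein linked to epilepsy. Each genotype was measured on 3 Mouse Gene 1.0 ST arrays described as biological replicates, with no statement of how many embryos or lines lay behind them, and p-values therefore reflect only how far these samples scatter, part of which may be technical scatter.

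Voltage-gated calcium and sodium channels open when the membrane depolarizes, and they carry the inward currents that drive action potentials, transmitter release, muscle contraction and calcium signalling to the nucleus. A calcium channel is built on 1 pore-forming α1 subunit of the Cav1 (L-type), Cav2 (P/Q-, N- and R-type) or Cav3 (T-type) class. The cytosolic β and the extracellular α2δ subunits bring Cav1 and Cav2 pores to the membrane and tune their gating. Sodium channels have 1 large α subunit and single-pass β subunits. In the brain, sodium currents grow as precursors mature into neurons.

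Values are log2 signals, on which a difference of 1 is a 2-fold change of the signal. The background was set from 1015 olfactory receptor genes, whose products act in the nose. The median of their mean signals over the 6 arrays was 4.89 and the 95th percentile was 5.67. A gene was said to be above background in a genotype when its mean exceeded that percentile. A gene was called when the limma p-value, adjusted over all 19938 genes by the Benjamini-Hochberg method, was under 0.05. In RNA of whole cultures, fewer cells of a type and less RNA per cell cannot be told apart. Array medians lay between 6.36 and 6.41. Lgi1 itself was below background in both genotypes (4.55 in knock-out and 4.77 in wild-type cells) and so did not check the labels, while Xist averaged 12.44 in knock-out and 4.64 in wild-type cells and the Y-linked Uty 4.82 in knock-out and 10.03 in wild-type cells. The Y-linked Eif2s3y and Kdm5d averaged 4.67 and 5.24 in knock-out cells, and 10.19 and 9.03 in wild-type cells. This is the pattern of female knock-out and male wild-type cells. Genotype and sex of the cells thus cannot be told apart, and the part of sex in any channel difference was not tested.

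Most of the channel genes gave no signal above background, and the few that did were spread over 7 of the 8 subunit classes. In knock-out cells 8 of the 35 genes were above background, and in wild-type cells 10 of them, 11 in either genotype. These 11 were Cacna1c, Cacna1a, Cacna1g, Cacna2d1, Cacnb1, Cacng1, Cacng2, Cacng7, Scn2a, Scn3a and Scn7a. With the 99th percentile of the olfactory receptor genes, 6.53, as the background, the count was 6 in knock-out and 6 in wild-type cells, and Cacna1a, Cacnb1, Cacng1, Scn3a and Scn7a were then below it in both genotypes. Of the 35, 2 rose (Cacna1g and Cacnb1) and 5 fell in knock-out cells (Cacna1a, Cacna2d1, Cacng8, Scn3a and Scn7a), which is 20.0% called, against 31.6% of all genes tested (14.0% higher and 17.6% lower). The 3 knock-out arrays did not overlap the 3 wild-type arrays for 11 of the 35 genes, against 42.3% of all genes. Among genes above background in either genotype, 6 of the 11 channel genes were called, against 49.7% of all such genes. Among those below it in both, 1 of 24 was called, against 5.95%. Of the 35 genes, 3 were called with a change of at least 2-fold (Cacna1g, Scn3a and Scn7a), which is 8.57%, against 5.32% of all genes. The median log2 difference over the 35 genes was −0.03, beside −0.01 over all genes. Shares of this size, near those of all genes, give no result about the channel genes as a group, and the results below concern single genes.

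**Figure D1:**
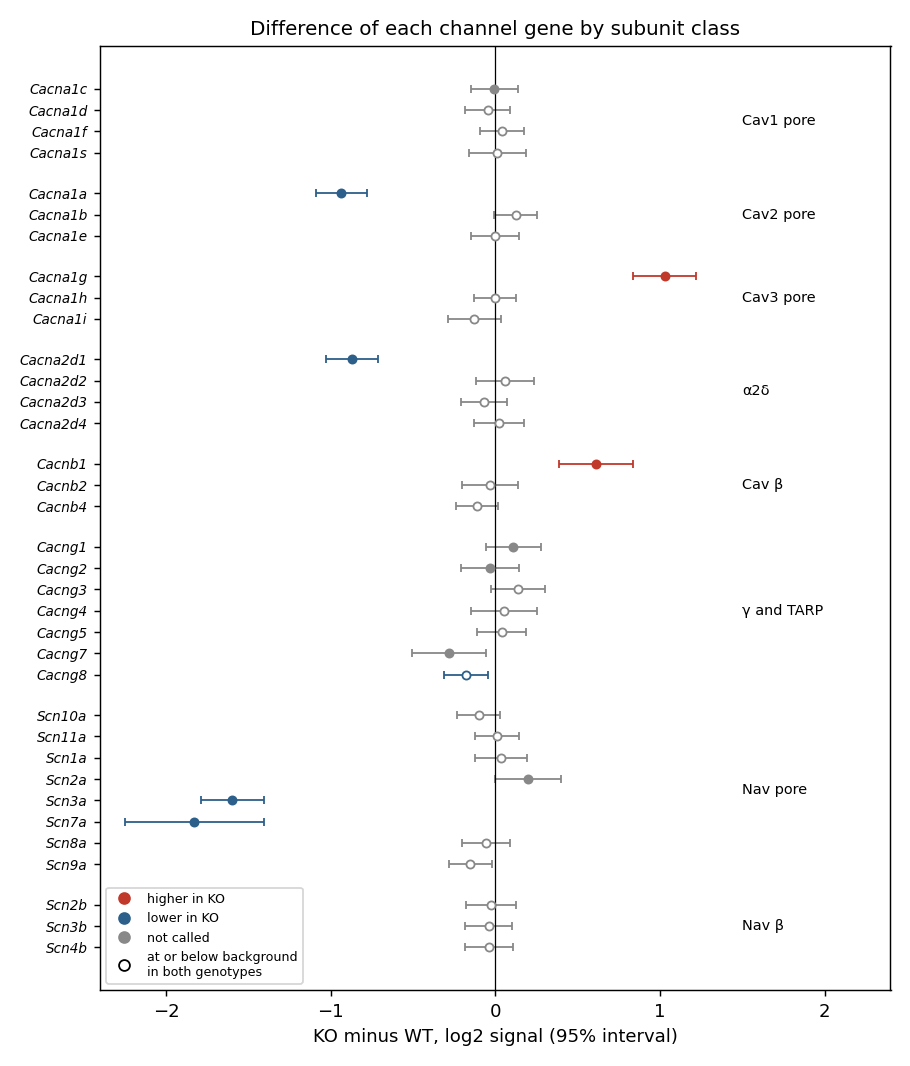
Differences of the 35 channel genes, knock-out minus wild type in log2 signal, with 95% intervals from limma, ordered by subunit class. Filled points are genes above background in at least 1 genotype, red is higher and blue lower in knock-out cells. Most points lie near 0, and the 4 lowest are Scn7a, Scn3a, Cacna1a and Cacna2d1.

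Among the pore subunits of calcium channels, a T-type gene rose, a P/Q-type gene fell and an L-type gene was well above background with no difference called. Cacna1g encodes Cav3.1, a T-type channel that opens at weak depolarization. Its log2 signal was 9.83, 9.86 and 9.75 on the knock-out arrays, against 8.79, 8.61 and 8.94 on the wild-type arrays. All knock-out arrays lay above all wild-type arrays. The means were 9.81 ± 0.058 in knock-out and 8.78 ± 0.17 in wild-type cells (SD, n = 3 each), a rise of 1.03 (SE 0.09, limma adjusted p = 7e-06) or 2.04-fold. The other T-type genes, Cacna1h (Cav3.2) and Cacna1i (Cav3.3), were below background in both genotypes, with log2 differences of −0.001 and −0.13.

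Cacna1a encodes Cav2.1, the P/Q-type pore that triggers transmitter release at many central synapses. It was at 5.56, 5.60 and 5.53 in knock-out cells, all below the background percentile, and at 6.50, 6.60 and 6.39 in wild-type cells, all above it. The gene fell by 0.93 on the log2 scale (SE 0.07, limma adjusted p = 2.7e-06). Because the knock-out level was within the background range, the size of this fall is limited by the background. Cacna1b (Cav2.2, N-type) had values of 5.03, 5.05 and 5.03 in knock-out cells and 4.95, 4.93 and 4.86 in wild-type cells, all below background. Its arrays did not overlap, but the difference of 0.12 was not called (limma adjusted p = 0.15). Cacna1e (Cav2.3, R-type) was also below background.

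Cacna1c encodes Cav1.2, the main L-type channel of brain, heart and smooth muscle. It read 9.30, 9.32 and 9.26 on the knock-out arrays and 9.27, 9.24 and 9.39 on the wild-type arrays, so the groups overlapped. The log2 difference was −0.01, with a 95% interval of −0.15 to 0.14 (limma adjusted p = 0.96). The rest of the Cav1 class, Cacna1d (Cav1.3), Cacna1f (Cav1.4 of the retina) and Cacna1s (Cav1.1 of skeletal muscle), was below background in both genotypes, with differences between −0.05 and 0.04. Of each pore class, Cav1, Cav2 and Cav3, 1 gene was above background, and this gene was not called in Cav1, lower in Cav2 and higher in Cav3.

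**Figure D2:**
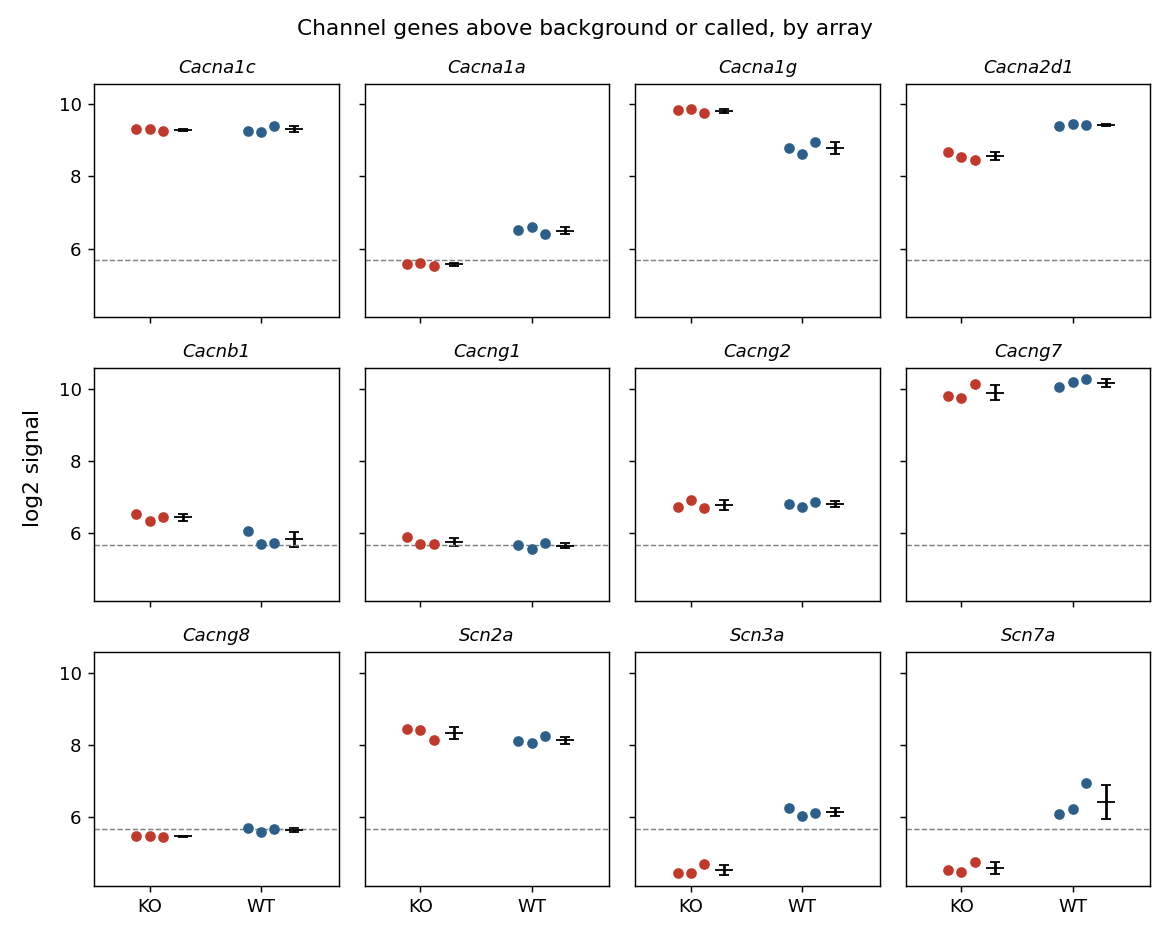
Log2 signal of the 11 channel genes above background in either genotype and of Cacng8, which was called below it. Each point is 1 array, knock-out (red) left of wild type (blue), black marks are means ± SD (n = 3), and the dashed line is the 95th percentile of olfactory receptor genes. Cacna1g and Cacnb1 lie higher in knock-out cells, and Scn3a and Scn7a lie below the line only there.

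Of the auxiliary subunit genes of calcium channels, Cacna2d1 and Cacng8 fell, Cacnb1 rose, and the others were not called. Cacna2d1 encodes α2δ-1, the subunit that binds gabapentin and promotes the surface delivery of Cav1 and Cav2 pores. It had log2 signals of 8.67, 8.55 and 8.45 in knock-out cells and 9.39, 9.46 and 9.43 in wild-type cells, with no overlap. The gene fell by 0.87 (SE 0.07, limma adjusted p = 5.8e-06), and the level stayed above background in both genotypes. A second row of the same gene averaged 8.43 in knock-out and 9.17 in wild-type cells, a difference of −0.74. Cacna2d2, Cacna2d3 and Cacna2d4, its paralogs, were below background in both genotypes with differences from −0.07 to 0.06, so Cacna2d1 was the α2δ gene with a measurable signal.

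Cacnb1 encodes the cytosolic β1 subunit, a partner of Cav1.1 in skeletal muscle that is also made in brain. Its signals were 6.53, 6.33 and 6.43 in knock-out cells, against 6.05, 5.68 and 5.73 in wild-type cells. The wild-type values lay close to the background percentile, and all 3 were under the lowest knock-out value. The gene rose by 0.61 (SE 0.10, limma adjusted p = 0.00092), or 1.53-fold. Cacnb2 and Cacnb4, which serve heart and brain channels, were below background in both genotypes. Cacnb4 did not overlap between genotypes (4.78, 4.79 and 4.84 in knock-out, 4.92, 4.90 and 4.92 in wild-type cells), and its difference of −0.11 was not called (limma adjusted p = 0.19).

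The promoters of these called auxiliary genes are shown because Cacna2d1 fell and Cacnb1 rose. The windows are the 250 bases before a transcript start in RefSeq (GRCm38.p6), and such windows were found for 27 of the 35 channel genes, 37 in all. Capitals mark matches to a GC box (GGGCGG on either strand), a TATA box (TATAAA) or a CCAAT box (CCAAT), each searched on both strands. Overlapping matches are joined. The Cacna2d1 window lies at chr5:15934441-15934690 on the plus strand, and the 2 windows of Cacnb1 lie at chr11:98022628-98022877 and chr11:98018373-98018622 on the minus strand.
Cacna2d1: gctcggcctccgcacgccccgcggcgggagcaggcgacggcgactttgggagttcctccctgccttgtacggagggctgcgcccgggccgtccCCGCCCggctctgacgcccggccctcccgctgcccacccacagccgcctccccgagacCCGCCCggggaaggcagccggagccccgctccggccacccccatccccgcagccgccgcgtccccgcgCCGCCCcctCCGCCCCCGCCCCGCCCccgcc
Cacnb1 first start: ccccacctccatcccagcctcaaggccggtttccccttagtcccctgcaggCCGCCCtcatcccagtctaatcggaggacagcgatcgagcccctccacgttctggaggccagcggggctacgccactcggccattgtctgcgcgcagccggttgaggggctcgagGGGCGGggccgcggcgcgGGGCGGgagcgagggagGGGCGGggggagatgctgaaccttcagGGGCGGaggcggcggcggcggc
Cacnb1 second start: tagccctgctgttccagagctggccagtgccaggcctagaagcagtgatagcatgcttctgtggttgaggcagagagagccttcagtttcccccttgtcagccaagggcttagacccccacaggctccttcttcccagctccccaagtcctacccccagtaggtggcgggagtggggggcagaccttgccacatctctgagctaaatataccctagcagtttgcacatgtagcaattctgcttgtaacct
The Cacna2d1 window held 6 GC boxes and 36 CpG dinucleotides. The first Cacnb1 window held 5 GC boxes and 26 CpG dinucleotides, and the second none and 1. A window of all 32851 such promoter windows held a median of 6 CpG dinucleotides, and 32.7% had a GC box, 33.8% a CCAAT box and 12.4% a TATA box. None of these 3 windows contained TATAAA or CCAAT in these letters. Which start is used in these cells was not measured, and no link between these motifs and the called differences was tested.

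The γ class holds the muscle subunit Cacng1 and the transmembrane AMPA receptor regulatory proteins (TARPs), which in neurons escort AMPA-type glutamate receptors to synapses. Of the 7 measured members, 1 fell and 6 were not called. Cacng7, a type II TARP, was well above background, at 9.80, 9.74 and 10.11 in knock-out cells and 10.04, 10.19 and 10.26 in wild-type cells. Knock-out replicate 3 lay above the lowest wild-type array. The log2 difference of −0.28 (SE 0.10) was not called (limma adjusted p = 0.061), but it passed in a fit with a replicate block (adjusted p = 0.015). It also passed without knock-out replicate 3 (−0.40, adjusted p = 0.0065) and without wild-type replicate 1 (−0.34, adjusted p = 0.044), so its call depends on the setting.

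Cacng8, a type I TARP that accompanies AMPA receptors in hippocampus, was at 5.47, 5.48 and 5.44 in knock-out cells and 5.69, 5.58 and 5.67 in wild-type cells. It fell by 0.18 (SE 0.06, limma adjusted p = 0.044), which is a 1.13-fold change with both means below the background percentile. Its call was lost without any one of 5 of the 6 arrays (adjusted p = 0.087 to 0.14 without them) and with an intensity trend and robust moderation together (adjusted p = 0.077). Cacng8 was also the gene just inside the background, with a wild-type mean of 5.65, and Cacng1 the gene just outside it, with a knock-out mean of 5.76. Cacng1 read 5.88, 5.69 and 5.70 in knock-out and 5.66, 5.56 and 5.72 in wild-type cells (difference 0.11, limma adjusted p = 0.34).

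Cacng2 encodes stargazin, the first known TARP, whose loss causes absence epilepsy in mice. Its row with the higher mean read 6.70, 6.92 and 6.68 in knock-out cells and 6.81, 6.72 and 6.87 in wild-type cells, and the difference of −0.03 was not called (limma adjusted p = 0.83). The second Cacng2 row averaged 4.63 in knock-out and 4.54 in wild-type cells, below background. The 2 rows of this gene thus differ on whether it was above background, and its level is uncertain. Cacng3, Cacng4 and Cacng5 were below background in both genotypes, with differences of 0.04 to 0.14.

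**Figure D3:**
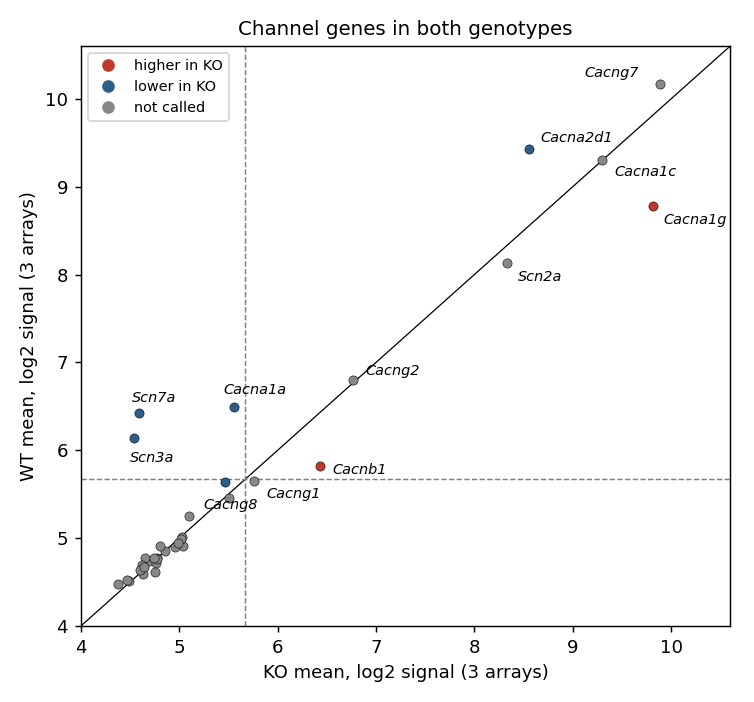
Mean log2 signal of the 35 channel genes in knock-out (x) and wild-type cells (y), 3 arrays each. The solid line marks equal means and the dashed lines the background percentile of 5.67. Genes above background in both genotypes lie top right, Cacna1a, Scn3a and Scn7a, above it in wild-type cells only, lie top left, and the 24 genes below it in both lie bottom left.

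The pore genes of sodium channels gave the largest falls of the set, and none of them was called higher in the main fit. Scn3a encodes Nav1.3, the sodium channel of embryonic brain. Its log2 signal was 4.46, 4.45 and 4.70 on the knock-out arrays, against 6.25, 6.05 and 6.11 on the wild-type arrays. Every knock-out value was in the range of the olfactory receptor genes, and every wild-type value was above their 95th percentile. The gene fell by 1.60 (SE 0.09, limma adjusted p = 2.4e-07), and the background limits how large the fall can appear. Scn7a encodes Nax, a sodium-sensing relative of these channels known from glia of the brain's salt-sensing regions, which is not opened by voltage. It read 4.54, 4.47 and 4.77 in knock-out cells and 6.09, 6.23 and 6.95 in wild-type cells. Wild-type replicate 3 was the highest of its group, and no wild-type array reached down to the knock-out values. Scn7a fell by 1.83 (SE 0.19, limma adjusted p = 3.6e-05), with means of 4.59 ± 0.16 in knock-out and 6.42 ± 0.46 in wild-type cells (SD, n = 3 each).

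The promoter of Scn7a is shown because this gene had the largest fall among the channel genes. Its window of 250 bases before the transcript start lies at chr2:66784911-66785160 on the minus strand of GRCm38.p6 (RefSeq), with the same motifs in capitals.
Scn7a: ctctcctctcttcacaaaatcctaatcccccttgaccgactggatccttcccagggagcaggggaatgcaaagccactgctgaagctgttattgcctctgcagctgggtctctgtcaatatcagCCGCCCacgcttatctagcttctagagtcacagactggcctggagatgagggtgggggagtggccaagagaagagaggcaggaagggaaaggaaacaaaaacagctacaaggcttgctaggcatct
It held 3 CpG dinucleotides and 1 GC box, with no CCAAT or TATAAA in these letters. The left arm of the RE1 element, TTCAGCACC, which the repressor REST reads in neuronal genes, was in none of the 37 channel gene windows and in 0.301% of all windows. With a share this low, its absence from 37 windows says nothing about these genes. No windows for Scn3a, Cacna1a and Cacna1g were among the reference windows, so these called genes are left out here.

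Scn2a encodes Nav1.2, which initiates action potentials in excitatory neurons early in life. The row with the highest mean read 8.45, 8.41 and 8.15 in knock-out cells, against 8.11, 8.06 and 8.24 in wild-type cells, with overlap. Its difference of 0.20 (SE 0.09) was not called (limma adjusted p = 0.13). The array holds 14 rows of Scn2a alone, whose means over the 6 arrays ran from 4.98 to 8.24, with 11 of them above the background percentile. In 13 of the 14 the knock-out mean was higher, by a median of 0.22 over those 13 rows and at most 0.33, and in 1 it was lower by less than 0.01. With all 21789 rows of single genes tested, an alternative chosen after the data were seen, 3 of the 14 rows were called. With the mean of the rows per gene, the Scn2a difference of 0.19 was called (adjusted p = 0.028), as was the difference of 0.29 without knock-out replicate 3 (adjusted p = 0.021). The rows measure the same gene on the same arrays and are not replicates, and which transcripts each row covers was not examined. The call for Scn2a depends on how its rows are joined.

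**Figure D4:**
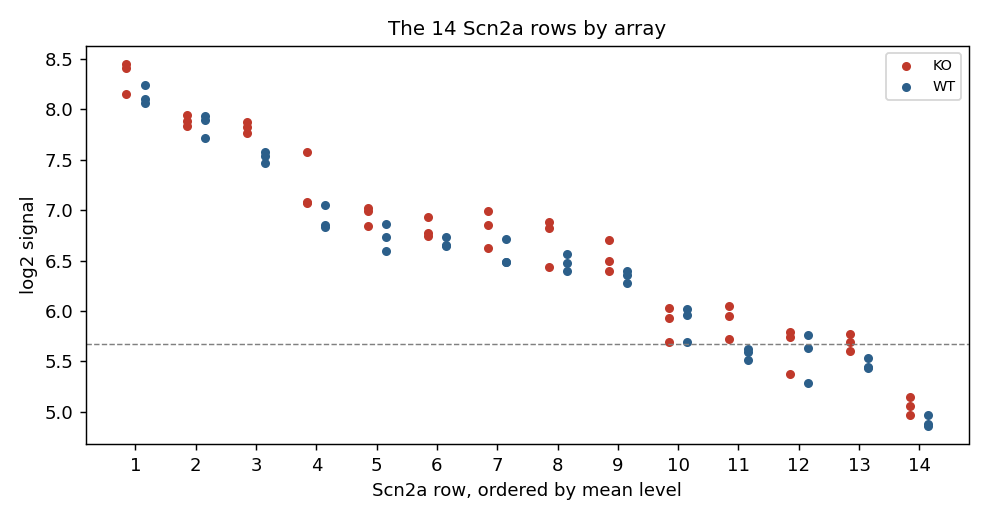
Log2 signal of the 14 rows of Scn2a on each array, knock-out (red) left of wild type (blue), ordered by the row's mean, with the background percentile dashed. Knock-out points are mostly a little higher, and the spread between rows, from 4.98 to 8.24, is far wider than that between genotypes.

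The other sodium channel genes were, in rows of a single gene, below background in both genotypes. Scn1a (Nav1.1, the channel of fast-spiking interneurons) and Scn8a (Nav1.6, the channel of mature axon initial segments) had log2 differences of 0.03 and −0.05. The sensory neuron channels Scn10a (Nav1.8) and Scn11a (Nav1.9) had differences of −0.10 and 0.01. Scn9a (Nav1.7, of sensory neurons) read 5.12, 5.12 and 5.06 in knock-out cells and 5.29, 5.21 and 5.25 in wild-type cells, and the difference of −0.15 was not called (limma adjusted p = 0.076). The β subunit genes Scn2b, Scn3b and Scn4b, whose products are adhesion-like partners of the pore, had differences between −0.04 and −0.03. None of the 3 was above background. Over both families, the 24 genes below background had single-array values of 4.35 to 5.69 and differences of −0.18 to 0.14.

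Scn3a, Scn2a, Scn1a, Scn9a and Scn7a form a cluster on chromosome 2, in that order in the RefSeq gene order of GRCm38.p6, with Csrnp3, Galnt3 and Ttc21b between Scn2a and Scn1a. The genes at both ends of the cluster, Scn3a and Scn7a, fell, and those between them did not all move with them. Scn2a was above background without a call, and Scn1a and Scn9a were below background in rows of a single gene. A row shared by Scn3a and Scn1a, assigned to neither, averaged 5.57 in knock-out and 6.76 in wild-type cells, with no overlap. Rows shared by Scn2a, Scn9a and Scn3a and by Scn9a and Scn3a differed by −0.23 and −0.25, with overlap. Ttc21b, a ciliary transport gene, fell by 0.46 (SE 0.08, limma adjusted p = 0.0014) and was above background in both genotypes, while Csrnp3 and Galnt3 were below it. Outside the cluster on the Scn3a side, Slc38a11 was below background and Cobll1 beyond it fell by 2.29 (7.14 in knock-out and 9.43 in wild-type cells). Beyond Scn7a, Gm1322 and Xirp2 were below background in both genotypes. Cobll1, Ttc21b and the other neighbours were taken by position and not by their values.

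**Figure D5:**
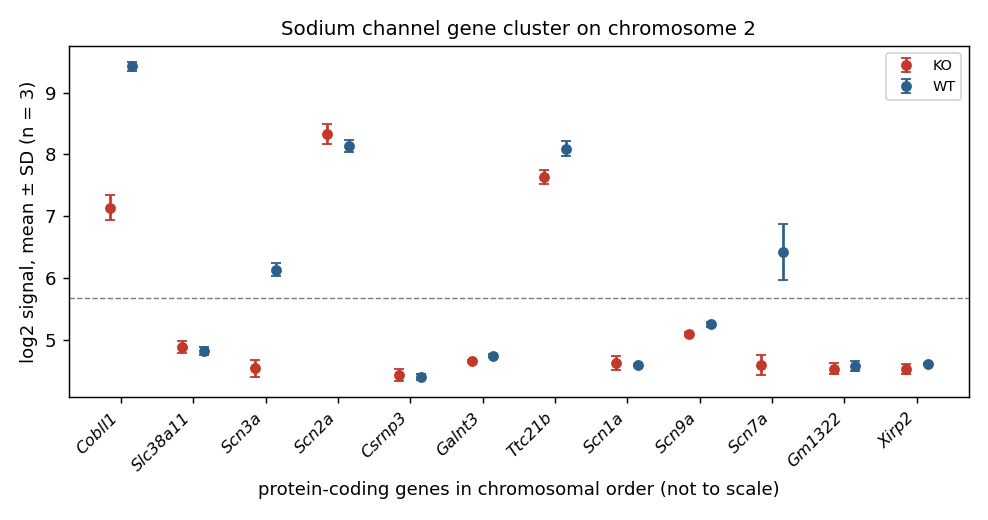
Mean log2 signal ± SD (n = 3) of the protein-coding genes of the sodium channel cluster on chromosome 2 and 2 neighbours on each side, in chromosomal order and not to scale, knock-out (red) left of wild type (blue). Scn3a and Scn7a are above the dashed background percentile in wild-type cells only, and Scn2a is above it in both.

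Genes that anchor or modulate sodium channels also included large falls. Of 13 measured partners 2 were higher and 4 lower, beside 14.0% of all genes higher and 17.6% lower. Fgf13, an intracellular FGF homologous factor that binds the tail of the sodium channel pore, averaged 5.42 ± 0.16 in knock-out and 7.23 ± 0.20 in wild-type cells (SD, n = 3 each), and fell by 1.81 (SE 0.11, limma adjusted p = 5.9e-07). Ank3 encodes ankyrin-G, the scaffold that gathers sodium channels at the axon initial segment, and fell by 1.44 (6.51 in knock-out, 7.95 in wild-type cells). Gpd1l fell by 0.49, and Rangrf, which promotes the surface delivery of sodium channels, rose by 0.32. Fgf14, a homologous factor of neurons, was the other partner called higher, by 0.31, with means of 4.88 in knock-out and 4.57 in wild-type cells, both below background. Fgf11, Fgf12, Cntn1, Nfasc and Sptbn4 were below background too. The median difference over the 13 partners was −0.05.

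Of 14 measured regulators of calcium channels, 2 rose and 3 fell, which is 35.7% called and near the 31.6% of all genes, with a median of −0.05. Without knock-out replicate 1, 1 of them was higher. Akap5, which tethers kinases and phosphatases to L-type channels, fell by 0.48, and Ahnak, a scaffold that binds the β subunit, fell by 0.30. The calmodulin-dependent kinase genes Camk2g and Camk2d rose by 0.31 and 0.25. Among genes of calcium release, pumping, exchange and store-operated entry, 3 of 19 rose and 4 fell, 36.8% called and again near the 31.6% of all genes. The number lower was 2 without knock-out replicate 1, knock-out replicate 2 or wild-type replicate 1. Slc8a1, the sodium-calcium exchanger NCX1, rose by 1.58 (SE 0.10, limma adjusted p = 7e-07), with means of 7.62 ± 0.098 in knock-out and 6.04 ± 0.19 in wild-type cells (SD, n = 3 each). The IP3 receptor gene Itpr3 rose by 0.65, the endoplasmic reticulum pump gene Atp2a3 fell by 0.55 with both means below background, and Stim2, a sensor of store calcium, fell by 0.47. Other sodium and calcium entry channels gave no rise and 2 falls among 16, or 12.5% called, against 31.6% of all genes. These were Nalcn, the sodium leak channel, which fell by 0.50 (6.66 in knock-out, 7.15 in wild-type cells), and the endolysosomal channel Tpcn1, which fell by 0.27. Of the 16 genes, 11 were at or below background in both genotypes, where 5.95% of all genes were called. Both falls were among the 5 genes above it, beside 49.7% called of all such genes.

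Markers of other cell types differed between the same arrays, and the part of cell identity in the channel differences was not tested. Sox2, a defining marker of neural progenitors, was below background in knock-out cells (5.35) and at 11.26 in wild-type cells. The other progenitor markers called lower were Fabp7, Pax6 and Nes, and Nes stayed above background (8.72 in knock-out, 10.73 in wild-type cells). Vim (13.52 in knock-out, 13.53 in wild-type cells) and Msi1 (8.17 and 7.85) were above background in both and not called. Vim carried most of the summed progenitor signal given next. Of 8 measured progenitor markers none rose and 4 fell (1 rise and 4 falls with the replicate block, and 1 rise also without knock-out replicate 2 or wild-type replicate 1), with a summed signal of 13.59 to 13.69 on the knock-out and 13.97 to 14.12 on the wild-type arrays (log2 of the sum of linear signals). Of 9 fibroblast and meninges markers 8 rose, and their sum was 14.31 to 14.45 in knock-out and 12.36 to 12.63 in wild-type cells. Smooth muscle and pericyte markers gave 3 rises and 1 fall of 7 (sums of 14.17 to 14.34 in knock-out and 13.62 to 13.85 in wild-type cells), with Myh11 and Des below background. Acta2, not called (13.41 in knock-out, 13.25 in wild-type cells), carried most of this sum. Skeletal and cardiac muscle markers gave 1 fall of 10, or 2 with the replicate block and none without any one of 5 of the 6 arrays (sums of 9.04 to 9.10 in knock-out and 9.03 to 9.21 in wild-type cells), and Myod1, Myog and Myf5 were below background. Endothelial markers gave 3 rises and 1 fall of 6, the fall not called without knock-out replicate 1 or 3 (10.39 to 10.56 in knock-out, 7.69 to 7.86 in wild-type cells), with Pecam1, Cdh5 and Kdr below background. Erg (9.97 in knock-out, 5.37 in wild-type cells) and Tek (8.21 and 5.07) carried most of the knock-out sum. Beside 31.6% of all genes (14.0% higher and 17.6% lower), 50% of progenitor and 88.9% of fibroblast and meninges markers were called. The share was 57.1% for smooth muscle and pericyte, 10% for skeletal and cardiac muscle and 66.7% for endothelial markers. Of the 10 skeletal and cardiac muscle markers, 6 were at or below background in both genotypes.

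Neuron markers gave 1 rise and 1 fall of 12 (3 falls with the replicate block, and 2 without knock-out replicate 3), and 9 of the 12 were below background in both genotypes, among them Tubb3, Rbfox3, Snap25 and Dcx. Their sum was 11.16 to 11.28 in knock-out and 10.55 to 10.66 in wild-type cells, and Map2 (10.95 in knock-out and 10.05 in wild-type cells) carried most of it. Astrocyte markers gave 1 rise and 2 falls of 7, or 3 falls with the replicate block (10.64 to 10.87 in knock-out, 10.98 to 11.25 in wild-type cells) with Gfap below background. Gja1, not called in the main fit (10.25 in knock-out, 10.55 in wild-type cells), carried most of this sum. Oligodendrocyte lineage markers gave 2 rises and 1 fall of 6 (9.25 to 9.32 in knock-out, 8.24 to 8.37 in wild-type cells), with Olig1, Olig2 and Mog below background. The rises were Pdgfra (8.35 in knock-out, 5.29 in wild-type cells) and Cspg4 (7.22 and 6.40), and these 2 genes carried most of the knock-out sum. Mbp fell (5.82 in knock-out, 6.69 in wild-type cells). Microglia markers gave 1 fall of 6, not called without knock-out replicate 3 or wild-type replicate 2 (7.63 to 7.66 in knock-out, 7.72 to 7.74 in wild-type cells), and 5 of the 6 were below background. The share called was 16.7% for neuron and for microglia markers, against 31.6% of all genes. For astrocyte markers it was 42.9% and for oligodendrocyte lineage markers 50%. All these lists are short, so the shares are imprecise.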

How the data were processed

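The deposited table holds 1 log2 value per probe set (a row below) and array, with its scale judged from its range. Per the submitters' processing notes Partek was used, and how background, scaling and probe summaries were handled is not stated in the labels. The deposited log2 values were used as they stand. Of 35556 rows, 21789 had 1 gene symbol in GEO's platform annotation, 1621 several and 12146 none. Rows with several symbols, 3 of them with channel genes, were not assigned. A gene with several rows is represented by its row of highest mean signal, giving 19938 genes. Genotype and replicate number came from the sample titles. The number of arrays, 3 of each genotype, limits the precision.

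The genotypes were set against each other in R 4.3.3 using limma 3.58.1 (lmFit, then eBayes; 4 residual degrees of freedom before moderation), adjusted over all genes. Differences are knock-out minus wild type. Each channel gene called or above background was named, and of the partner lists the 4 called genes with the largest differences. The members, lists and the background measure were chosen with earlier results of these data known. Alternatives were quantile normalization, median centring, 2 filters on low values, the mean of the rows of a gene, all rows tested, an intensity trend with robust moderation, array weights, no moderation, a replicate block, each array left out, a threshold of 0.01, and other backgrounds.

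Same-numbered arrays of the genotypes deviated together (correlations of deviations from the genotype means of 0.19 to 0.29 across genes, and −0.18 to −0.0047 for unlike numbers). The titles number the replicates but state no pairing, so a pairing by number rests on these correlations. The test above leaves the pairing out, and blocked values stand beside the calls and counts they change. The fit was tested on simulated data of 19938 genes, where changes of 0.5 on the log2 scale were recovered for 70% of 50 genes and of 1 for 100%. There 10 unchanged genes were called. Only 50 genes were changed per size, a far smaller share than the 31.6% called in these data. The simulation therefore checks the fit and does not give the recovery in this comparison.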

Additional observations from a re-analysis of the deposited data

How the results depend on the processing

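The differences of Cacna1a, Cacna1g, Cacna2d1, Cacnb1, Scn3a and Scn7a kept their direction and their call under every alternative in which the gene was tested. The number of channel genes higher in knock-out cells was 2, and ranged from 2 to 3 without single arrays. It was 1 among genes at or above the median level, where lower-signal genes are not tested, and there the number lower was 2 instead of 5. Without single arrays the number lower ranged from 4 to 5, and with median centring or without moderation it was 7. With the replicate number as a block 2 were higher and 6 lower, the added one being Cacng7 (adjusted p = 0.015). The block changed no other call of a named channel gene, and over all genes it gave 7000 calls, against 6296. Without single arrays the calls over all genes ranged from 5485 to 5803. With the 99th percentile of olfactory receptor genes as background, 6 channel genes were above it in knock-out cells and 6 in wild-type cells, against 8 in knock-out and 10 in wild-type cells with the 95th. Without single arrays those counts were 8 in knock-out cells and 10 to 11 in wild-type cells. The sign of Cacna1c turned with quantile normalization (0.0075), array weights (0.00098), and without knock-out replicate 3 (0.011) or wild-type replicate 3 (0.041). Without single arrays its difference ran from −0.037 to 0.041. The sign of Cacng2 turned with the mean of its rows (0.026) and without knock-out replicate 3 (0.012) or wild-type replicate 3 (0.0018), and without single arrays it ran from −0.11 to 0.012. The causes were not tested, and none of these differences was called. Cacng7 was called under 7 alternatives, and its adjusted p ranged from 0.0065 to 0.24, that of Cacng8 from 0.022 to 0.14 and that of Scn2a from 0.021 to 0.36. For the low-signal genes, nearness to background limits what can be seen.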
